A study of Mus musculus with 8 samples.

Results

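Cd70, a B cell costimulatory ligand, was measured at a high level in untransfected A20 mouse B lymphoma cells, at a far lower level in A20 cells transfected with IgM, and below background in both clones transfected with IgE. It was described here together with 9 other genes of the tumour necrosis factor (TNF) superfamily and its signalling in B cells: the ligands Tnf and Ltb, the receptors Cd27, Cd40, Tnfrsf13b (TACI), Tnfrsf13c (BAFF-R), Tnfrsf17 (BCMA) and Tnfrsf1b, and the adaptor Traf1. The members were all non-control probes whose gene name in the array files is one of these 10, which gave 14 probes of the 55681 probes and 10 of the 34797 gene names on the array. An accession of 13 of the 14 probes was found in the RefSeq table of assembly GRCm38.p6, under the same symbols.

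The study compared 4 lines of A20, each on 2 one-colour arrays. The groups were untransfected A20, a stable A20 transfectant labelled IgM+ (a membrane IgM control in the design text), and the stable IgE+ transfectants clone 18 and clone 41. All lines shared the A20 background and the same medium, RPMI with 10% serum and 50 µM beta-mercaptoethanol. Each IgE line is 1 clone. Promoters of the transfected constructs are not given in the sources used here, and nothing in the labels ties a line's arrays to independent cultures. The spread between them may therefore be technical, and p-values measure that spread alone.

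TNF superfamily ligands are trimeric proteins, mostly held on the cell surface, that cluster receptors of the matching family on a neighbouring cell or on the same cell. Clustered receptors recruit TRAF adaptors, which switch on NF-kB and other pathways. In B cells the family carries survival signals through BAFF-R, TACI and BCMA, T cell help through CD40, and costimulation through the pair CD70 and CD27.

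The values below come from probes of 60 bases, and TACI and BAFF-R were each measured at more than 1 place. The sequences are shown 5′ to 3′ in the sense of the transcript, as given in the array files, because these probes carry the Cd70 result and the comparison of probes within a gene. No part is marked with capitals. Positions are on mm9, the build named in the file headers, and the Cd70 entry is the first 30 bases of its probe.
Cd70, base 737 of the transcript, chr17:57285495-57285524, minus strand: tttggagttcagtggatatgcccttgacca
Tnfrsf13c, base 91, chr15:82054616-82054675, minus strand: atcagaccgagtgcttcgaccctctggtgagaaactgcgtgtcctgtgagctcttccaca
Tnfrsf13b, base 175, chr11:60954823-60954882, plus strand: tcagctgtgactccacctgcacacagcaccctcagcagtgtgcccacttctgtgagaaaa
Tnfrsf13b, base 408, chr11:60960405-60960464, plus strand: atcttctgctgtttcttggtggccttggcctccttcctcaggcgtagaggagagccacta

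By the scanner software's own flag, 49.7% to 58.9% of the spots on each array stood well above background, and precision is limited by the small number of arrays. The untransfected arrays stood apart from each other: the SD of the log2 difference between replicates was 0.652 over 24838 probes, against 0.326 to 0.375 in the other lines. All 10 B cell defining markers checked were detected well above background throughout. The IgM arrays read highest for the probe described as the mu heavy chain (5.04 and 4.81, against 3.83 to 4.49 on the other 6). Of the markers of other cells, 5 of 10 T and NK cell genes, 7 of 10 myeloid genes and 4 of 8 stromal and erythroid genes were also well above background on all 8, whereas the T cell gene Cd8a, the myeloid genes Lyz2 and Cd14 and the stromal gene Col1a1 were not well above background on any array. In RNA from whole cultures, fewer cells of a type and less RNA per cell cannot be told apart.

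Levels are log2 of the processed intensity over the array's 75th percentile, so that 0 is the signal of a probe at that percentile, and levels are compared between arrays for 1 probe at a time. Tested probes were those well above background on each array of 1 line or more, which held for 11 of the 14 member probes and 8 of the 10 genes. Differences were fitted with limma over all 29140 probes that passed this filter, and a probe was called at an adjusted p under 0.05 with a change of at least 2-fold.

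**Figure D1:**
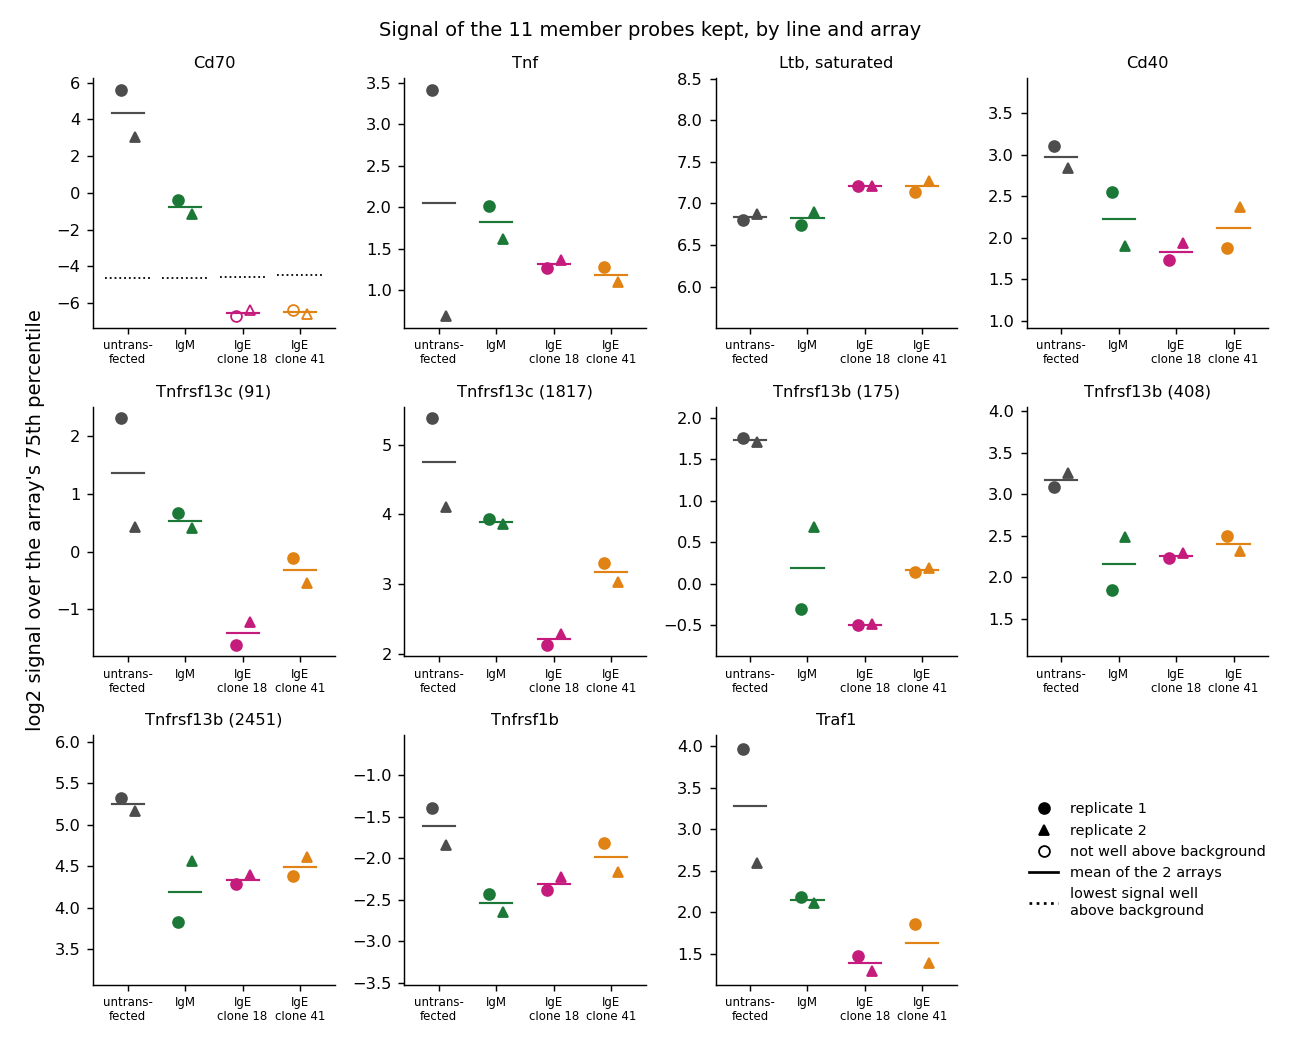
Level of the 11 member probes that passed the filter, in log2 units over the array's 75th percentile (y axis, with a range of its own in each panel), on the 2 arrays of each line (circle, replicate 1; triangle, replicate 2; horizontal line, mean; open symbols, not well above background). Numbers after a gene name are the probe's first base in its transcript. The 4 IgE arrays of Cd70 lie below the dotted line, the lowest signal well above background, while untransfected replicate 1 lies well above replicate 2 for Cd70, Tnf, Tnfrsf13c and Traf1.

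Among the ligands, Cd70 gave the widest range of any member. Cd70 is the ligand of CD27. Its probe (chr17:57285465-57285524, minus strand) read 5.61 and 3.04 on the untransfected arrays, -0.37 and -1.16 on the IgM arrays, -6.72 and -6.39 on the clone 18 arrays and -6.40 and -6.62 on the clone 41 arrays. In processed intensity the untransfected arrays read 27979 and 4261, the IgM arrays 454 and 233, and the IgE arrays 4.07 to 5.44. The 3 kinds of line did not overlap, and none of the 4 IgE spots was well above background, so that a fold against them is a lower bound. The bound sets the brighter mean against, per array, whichever is higher of the dim spot and the lowest signal well above background there.

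Cd70 fell by at least 78.5-fold in the IgE lines pooled (fitted log2 difference -8.31 ± 0.53, SE; limma adjusted p = 0.000169). Against untransfected cells it was at least 472-fold lower in clone 18 and at least 444-fold lower in clone 41 (limma adjusted p = 0.000446 and 0.000551). Against IgM cells the bounds were 13.9-fold and 13.0-fold (limma adjusted p = 0.00491 and 0.00612). The IgM line was itself 34.0-fold lower than untransfected cells (-5.09 ± 0.75, limma adjusted p = 0.0259).

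The fall against both controls pooled was -7.67 without untransfected replicate 1 and -8.95 without replicate 2. With either left out, the fit had no estimate of the wide spread between the untransfected arrays, so a call there is no check. Without clone 18 replicate 1 the difference of clone 18 from IgM cells was -5.62 with a limma adjusted p of 0.0502. The IgM difference from untransfected cells was -3.81 without untransfected replicate 1 and -6.37 without replicate 2. It lost the call without IgM replicate 1 (-5.48, adjusted p = 0.0782) or IgM replicate 2 (-4.69, adjusted p = 0.102), and, at the same size of -5.09, without an array of clone 18 (adjusted p = 0.0795 for both) or of clone 41 (adjusted p = 0.0588 for both). The pooled difference was called in the authors' deposited table (-5.58) and with normexp background correction (-4.69), at a smaller size. In the authors' deposited table the calls of both clones against IgM cells were lost (-2.88 and -3.39, limma adjusted p = 0.104 and 0.0812), as they were with normexp (-2.12 and -2.39, adjusted p = 0.0967 and 0.0764).

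Tnf, the gene of the inflammatory cytokine TNF, did not pass the test in any comparison. Its probe (chr17:35336795-35336854, minus strand) read 3.42 and 0.68 in untransfected cells, 2.02 and 1.61 in IgM cells, 1.26 and 1.36 in clone 18 and 1.28 and 1.09 in clone 41. The untransfected arrays were the highest and the lowest of all 8, and the IgE arrays lay between them. IgE lines differed from control lines by -0.69 ± 0.55 (SE; limma adjusted p = 0.428). It was 0.00 without untransfected replicate 1 and -1.37 without untransfected replicate 2. Without replicate 2 the differences from untransfected cells were -2.11 in clone 18, -2.23 in clone 41 and -1.6 in IgM cells. Without replicate 1 they were 0.63, 0.51 and 1.14 in the same order.

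The array carries the Tnf probe in 10 spots, which allowed the error of a single array to be measured. The SD of log2 intensity among these spots was 0.0424 to 0.0631 on each of the 8 arrays. The spots of untransfected replicate 1 read 5592 to 6568 in intensity and those of replicate 2 read 791 to 885, a difference of 6.69-fold between the replicates on the scaled values. The gap between these arrays was thus far wider than the error of the spots, and it lay between the hybridised samples or arrays, which cannot be told apart.

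**Figure D2:**
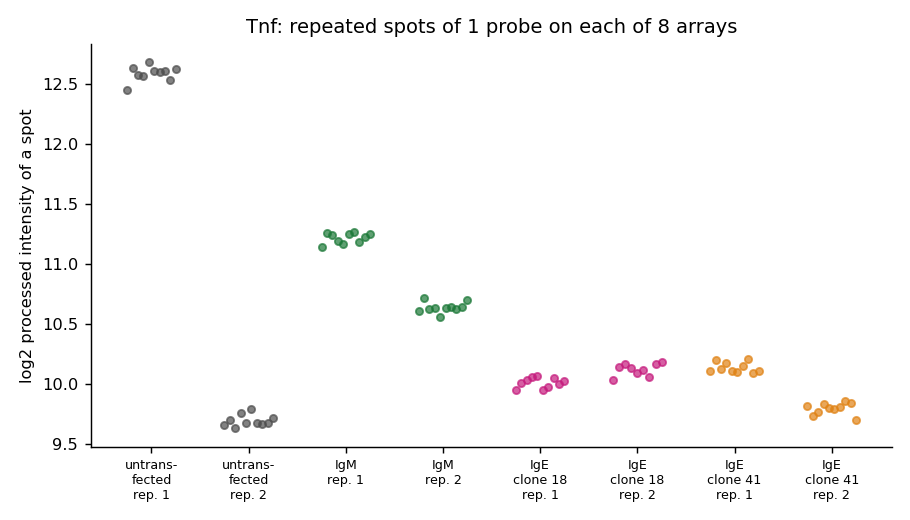
Log2 processed intensity (y axis, before scaling) of every Tnf spot that was not an outlier, for each of the 8 arrays (x axis); each point is 1 spot, spread sideways for visibility. Spots of 1 array lie within a narrow band (SD 0.0424 to 0.0631), whereas untransfected replicates 1 and 2 lie at the top and the bottom of the plot.

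Ltb encodes lymphotoxin beta, which anchors lymphotoxin alpha in the membrane. Its probe (chr17:35333097-35333156, plus strand) lies 3638 bases from the Tnf probe, since both genes belong to a compact cluster. The Ltb spot was saturated on all 8 arrays, with intensities of 60602 to 64990. Its level of 6.74 to 7.27 is therefore only a lower bound, and no difference between lines can be read from it.

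Among the receptors, BAFF-R fell in the IgE lines by both of its probes. Tnfrsf13c encodes BAFF-R, the receptor through which BAFF sustains mature B cells. The probe at base 1817 (chr15:82052203-82052262, minus strand) read 5.38 and 4.11 in untransfected cells, 3.93 and 3.86 in IgM cells, 2.13 and 2.29 in clone 18 and 3.31 and 3.03 in clone 41. The probe at base 91 read 2.30 and 0.42, then 0.67 and 0.40, then -1.61 and -1.22, then -0.11 and -0.54 in the same order. By both probes all IgE arrays lay below all control arrays, and clone 18 lay below clone 41.

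By the probe at base 1817, BAFF-R was 3.09-fold lower in IgE lines than in controls (-1.63 ± 0.27, SE; limma adjusted p = 0.00958). The probe at base 91 gave 3.53-fold (-1.82 ± 0.40, limma adjusted p = 0.0247). In the clone comparisons clone 18 was 5.77-fold and 6.84-fold lower than untransfected cells (adjusted p = 0.0115 and 0.0296), and 3.21-fold lower than IgM cells at base 1817 (adjusted p = 0.0408), with -1.95 at base 91 (adjusted p = 0.0801). Clone 41 differed from untransfected cells by -1.57 and -1.69 (adjusted p = 0.0679 and 0.144) and from the IgM line by -0.72 and -0.86 (adjusted p = 0.32 and 0.411), none of which was called. The clones themselves differed by 0.96 ± 0.39 and 1.09 ± 0.56, with limma adjusted p of 0.861 and 1.0.

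In the authors' deposited table and with no filter, the pooled BAFF-R call held at base 1817 (limma adjusted p = 0.0316 and 0.0402). At base 91 it was lost (0.0652 and 0.0843). Clone 18 against IgM cells lost its call at base 1817 in both (0.0837 and 0.123). The pooled difference at base 1817 was -1.31 without untransfected replicate 1, the highest array, and -1.94 without replicate 2. No other array left out took it beyond these values. At base 91 the corresponding values were -1.35 and -2.29. With an untransfected array left out, the fit had no estimate of the spread between these arrays, so a call there is no check. The call at base 91 was lost without IgM replicate 1 or 2 (adjusted p = 0.0764 and 0.0569), clone 18 replicate 1 or 2 (0.0963 and 0.071) and clone 41 replicate 1 or 2 (0.0618 and 0.0798), at differences of -1.71 to -1.93. For clone 41 against untransfected cells, the probes gave -2.21 and -2.63 without untransfected replicate 2, and -0.94 and -0.75 without replicate 1. For clone 18 against IgM cells, the call at base 1817 was lost without any 1 IgM or IgE array (-1.60 to -1.76). The difference at base 91 stayed at -1.95 without either untransfected array. With no filter, clone 18 against untransfected cells was called at neither base 1817 nor base 91 (limma adjusted p = 0.0524 and 0.107). In the authors' deposited table base 91 was not called there (0.0813). For clone 18 against untransfected cells, base 1817 lost its call without clone 18 replicate 1 or 2 (adjusted p = 0.0949 and 0.0717), and base 91 without any 1 IgM or IgE array (-2.58 to -2.97, adjusted p = 0.0509 to 0.188).

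TACI passed the test in the IgE lines by 1 of its 3 probes. Tnfrsf13b encodes TACI, which binds both BAFF and APRIL. The probe at base 175 read 1.76 and 1.71 in untransfected cells, -0.30 and 0.68 in IgM cells, -0.50 and -0.48 in clone 18 and 0.14 and 0.19 in clone 41. The probe at base 408 of the same transcript read 3.08 and 3.26, then 1.84 and 2.48, then 2.23 and 2.29, then 2.5 and 2.31. The probe at base 2451 of an Ensembl transcript (chr11:60962770-60962829, plus strand) read 5.32 and 5.17, then 3.83 and 4.56, then 4.29 and 4.39, then 4.38 and 4.61. By all 3 probes the untransfected arrays were the highest, and the IgM arrays overlapped the IgE arrays.

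At base 175, TACI was 2.18-fold lower in IgE lines than in controls (-1.12 ± 0.22, SE; limma adjusted p = 0.016). The difference was -0.33 ± 0.17 at base 408 (adjusted p = 0.225) and -0.30 ± 0.19 at base 2451 (adjusted p = 0.303). In the single-line comparisons this probe was called against untransfected cells: clone 18 was 4.66-fold and clone 41 was 2.96-fold lower than untransfected cells (limma adjusted p = 0.0077 and 0.0324). Against IgM cells the differences were -0.68 and -0.02 (adjusted p = 0.223 and 0.974). The IgM line itself differed from untransfected cells by -1.54, -1.0 and -1.05 at bases 175, 408 and 2451 (adjusted p = 0.0711, 0.121 and 0.132).

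The pooled TACI difference at base 175 fell short of 2-fold with normexp (-0.97), in the authors' deposited table (-0.99) and without IgM replicate 2 (-0.88). With no filter it was not called (limma adjusted p = 0.0575). Its call was lost without clone 18 replicate 1 or 2 (adjusted p = 0.0659 and 0.0622) and clone 41 replicate 1 or 2 (0.0591 and 0.0526), and in a fit of 2 groups of 4 arrays (0.131). Clone 18 against untransfected cells lost its call without clone 18 replicate 1 or 2 (adjusted p = 0.0681 and 0.0609). Clone 41 against untransfected cells lost it without either untransfected array (adjusted p = 0.0586 and 0.0731), either clone 18 array (0.0774 for both) or either clone 41 array (0.161 and 0.139). In the authors' deposited table and with no filter, clone 41 against untransfected cells was not called (limma adjusted p = 0.067 and 0.113). With an array left out, clone 18 against IgM cells ran from -1.17 to -0.19. The difference of IgM from untransfected cells ran from -2.03 to -1.05.

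Since scaling cancels between probes of 1 array, the probes of TACI and BAFF-R were also set against each other within each array. For TACI the log2 difference of base 175 from base 2451 was -3.56 and -3.46 in untransfected cells, -4.13 and -3.88 in IgM cells, -4.78 and -4.86 in clone 18 and -4.24 and -4.42 in clone 41. All 4 IgE arrays lay below all 4 control arrays, by a mean of 0.82 (-4.58 ± 0.29 against -3.76 ± 0.31, SD, n = 4 each; exact two-sided permutation test over 70 splits, p = 0.0286, which is 0.114 after Benjamini-Hochberg adjustment over the 4 probe pairs tested). The same difference against base 408 was -0.79 (exact permutation p = 0.0571, adjusted 0.114), and between bases 408 and 2451 it was -0.03 (exact permutation p = 0.771). For BAFF-R, base 91 against base 1817 gave -0.19 (exact permutation p = 0.257, adjusted 0.343). The value of 0.0286 is the smallest that 70 splits allow, and 0.114 is the smallest that 1 such pair can reach after adjustment, so the adjusted test could not call a single pair. The splits also treat the arrays of a line as exchangeable, although each side holds only 2 lines.

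**Figure D3:**
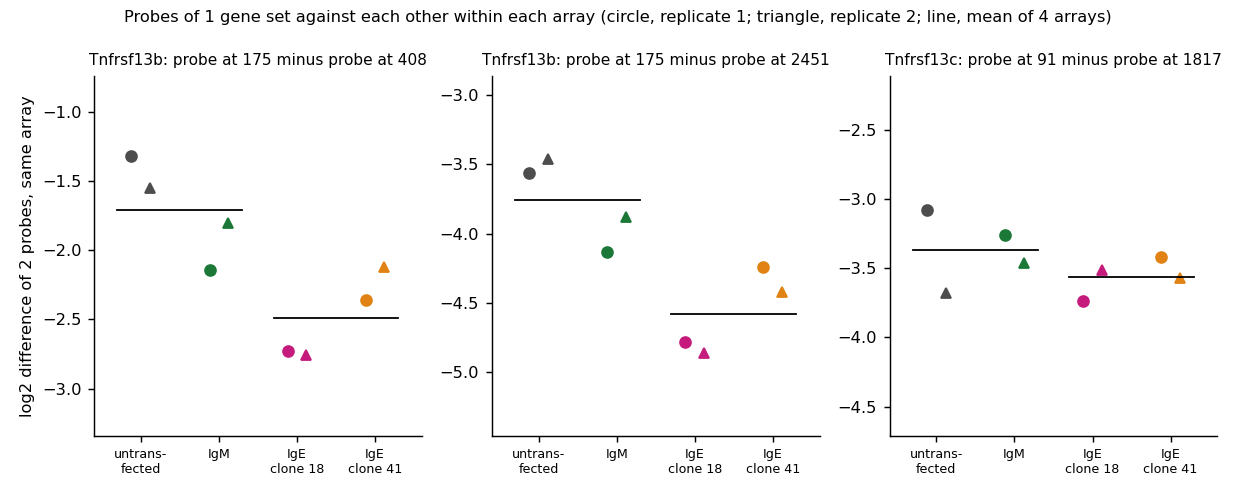
Log2 difference between 2 probes of a gene on the same array (y axis), for the 2 arrays of each line (x axis); horizontal lines are the means of the 4 control and the 4 IgE arrays. For TACI, base 175 minus base 2451, the IgE mean is -4.58 and the control mean -3.76, without overlap; for BAFF-R the arrays overlap.

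Cd40 encodes the receptor for T cell help. Its probe (chr2:164897085-164897144, plus strand) read 3.11 and 2.84 in untransfected cells, 2.55 and 1.90 in IgM cells, 1.73 and 1.94 in clone 18 and 1.88 and 2.37 in clone 41. Untransfected cells were highest, and the IgM arrays overlapped the IgE arrays. IgE lines differed from control lines by -0.62 ± 0.20 (SE; limma adjusted p = 0.0791), and that of clone 18 from untransfected cells was -1.14 ± 0.28 (adjusted p = 0.0577), so neither was called. The latter passed under normexp (-1.01, adjusted p = 0.0422), in probes well above background on all 8 arrays (adjusted p = 0.0464) and with a trended, robust prior (adjusted p = 0.0276).

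Tnfrsf1b encodes TNF receptor 2, the receptor that prefers membrane-bound TNF. It was a dim probe here (chr4:144802359-144802418, minus strand), at -1.39 and -1.84 in untransfected cells, -2.43 and -2.65 in IgM cells, -2.38 and -2.23 in clone 18 and -1.82 and -2.16 in clone 41. The IgM arrays were the lowest, and the means of both IgE clones lay between those of the controls. The IgE lines differed from the controls by -0.07 ± 0.16 (SE; limma adjusted p = 0.805). It was 0.05 without untransfected replicate 1. IgM cells differed from untransfected cells by -0.93 ± 0.23 (adjusted p = 0.125) and clone 41 from the IgM line by 0.55 (adjusted p = 0.208), and neither was called.

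The other receptors, CD27 and BCMA, were not well above background on any array and were not tested. CD27 is the receptor of CD70, and BCMA is best known on plasma cells. The CD27 probes (chr6:125183076-125183135 and chr6:125183200-125183259, minus strand) gave intensities of 4.07 to 20.3, and the BCMA probe (chr16:11320045-11320104, plus strand) gave 3.81 to 5.27. The lowest signal well above background was -4.71 to -4.45 in log2 units on the 8 arrays, so levels under that bound were not detectable here.

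Traf1, an adaptor that binds TRAF2 and whose gene is a known NF-kB target, fell in the pooled comparison. Its probe (chr2:34798882-34798941, minus strand) read 3.97 and 2.59 in untransfected cells, 2.18 and 2.11 in IgM cells, 1.48 and 1.29 in clone 18 and 1.86 and 1.39 in clone 41. All IgE arrays lay below all control arrays. Traf1 was 2.31-fold lower in the IgE lines (-1.21 ± 0.30, SE; limma adjusted p = 0.0383) and 3.73-fold lower in clone 18 than in untransfected cells (adjusted p = 0.0425). Clone 41 differed from untransfected cells by -1.66 (adjusted p = 0.0767), and the clones from the IgM line by -0.76 and -0.52 (adjusted p = 0.313 and 0.517).

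The pooled Traf1 call was lost in a fit of 2 groups of 4 arrays (limma adjusted p = 0.0718), with line as a random block (0.0806), in the authors' deposited table (0.0545) and with no filter (0.114). Without untransfected replicate 1 the pooled difference was -0.87, short of 2-fold, and without replicate 2 it was -1.55. With IgM replicate 1 or 2 left out the adjusted p was 0.103 and 0.0886, with clone 18 replicate 1 or 2 left out 0.108 and 0.12, and with clone 41 replicate 1 or 2 left out 0.0752 and 0.115. The clone 18 call against untransfected cells was likewise lost without any 1 IgM or IgE array (adjusted p = 0.0691 to 0.187). Without untransfected replicate 2, Traf1 differed from untransfected cells by -2.35 in clone 41 and -1.82 in IgM cells. Without replicate 1 these differences were -0.97 and -0.45.

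**Figure D4:**
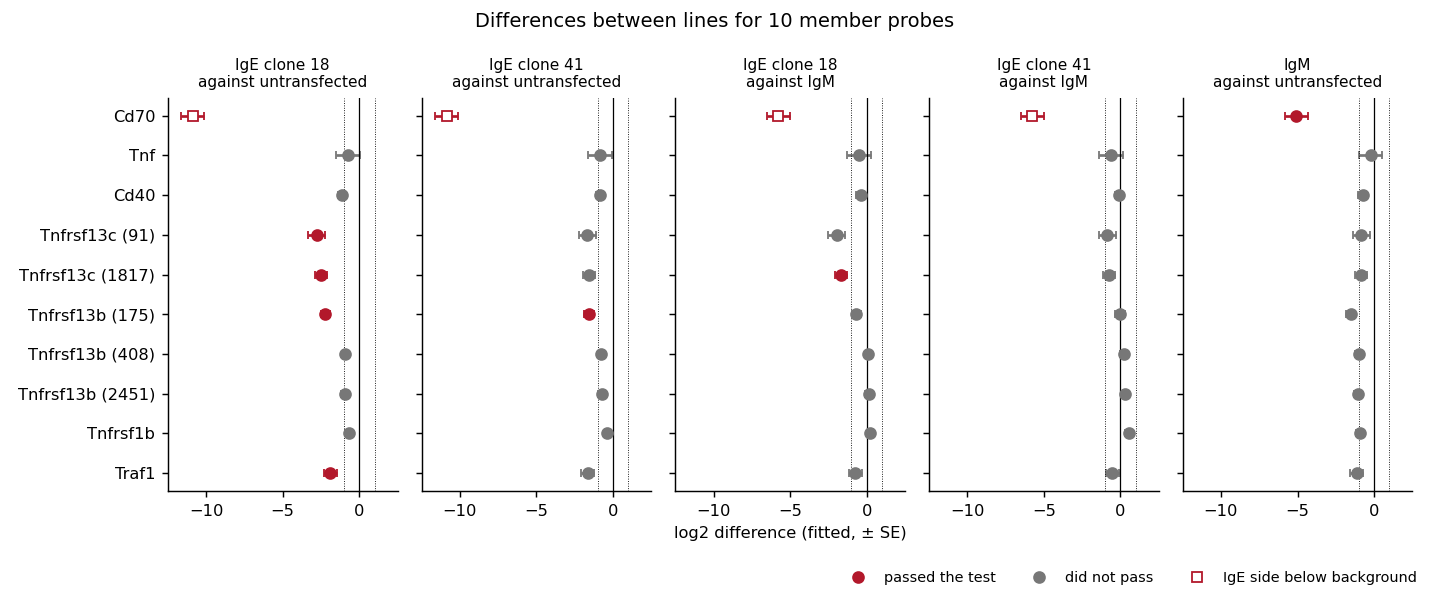
Fitted log2 differences ± SE (x axis) for 10 member probes (rows; the saturated Ltb probe is left out) in 5 comparisons (panels); red marks probes that passed the test, open squares those whose IgE side was below background, and dotted lines 2-fold. Cd70 passed in all 5 panels; no probe passed in the higher direction.

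Counted over the members, 5 of the 11 probes tested, from 4 genes, were called lower in the IgE lines and 0 higher: Cd70, both BAFF-R probes, TACI at base 175 and Traf1. Over all 29140 probes 5.35% were called lower and 3.63% higher, or 8.99% in either direction. The members were chosen with earlier results of these data known, so the share of members called is no test of the set. Cd70 passed the filter through the control lines alone, so it could be called only lower. The members' median difference was -0.69 and that of all probes 0.06, and the differences of all 10 unsaturated probes were below 0. The arrays of 4 member probes did not overlap in the lower direction, against 9.79% of all probes, and those of 1, the saturated Ltb probe, in the higher direction, against 14.2%. With an untransfected array left out, the fit had no estimate of the spread between those arrays, so a count there is no check. The count was lower than 5 without any 1 IgM or IgE array.

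In the comparisons of single lines, members were called in the lower direction only. Clone 18 against untransfected cells gave 5 of 11 (4.06% of all probes lower, 7.43% in either direction), and clone 41 against untransfected cells gave 2, Cd70 and TACI at base 175 (3.09% and 5.46%). Clone 18 against IgM cells gave 2, Cd70 and BAFF-R at base 1817 (5.34% and 8.79%), and clone 41 against IgM cells gave 1, Cd70 (4.52% and 7.21%). These comparisons share control arrays. IgM against untransfected cells gave 1, Cd70 (0.714% and 1.8%), with the differences of all 10 unsaturated probes below 0. Clone 41 against clone 18 gave 0 with limma, where 0.257% of all probes were called, and 1 member probe and 1625 probes had an unadjusted p under 0.05.

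The untransfected line had the highest mean of the 4 lines for every probe tested other than Ltb. Of the steps between neighbouring lines in the order of the means, limma called those of Cd70 from untransfected to IgM cells and from IgM cells to clone 41, and no other. In untransfected cells 5 member probes differed by over 2-fold between replicates, all higher in replicate 1: Tnf (6.69-fold), Cd70 (5.9-fold), BAFF-R (3.68-fold at base 91 and 2.42-fold at base 1817) and Traf1 (2.59-fold). In the other lines 0 of the 11 member probes tested differed by over 2-fold between replicates. Over 24838 probes well above background on all arrays, 10.5% differed so in untransfected cells and 0.801% to 2.45% in the other lines.

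Outside the members, BAFF and 4-1BB ligand fell in the IgE lines. Each other gene is given by its brightest probe. Of 14 other TNF superfamily ligands on the array 7 were tested, of which 3 fell, 0 rose and 4 were not called in the IgE lines (median -1.06, against 0.05 over all genes). The third, Tnfsf10, was below background on all but the IgM arrays, and its pooled bound was only 1.07-fold. It passed the filter through the IgM arrays alone, so in the IgE lines it could be called only lower. Over all probes 5.35% were called lower and 3.63% higher. Tnfsf13b encodes BAFF, the ligand of BAFF-R and TACI, and read -2.57 and -2.06 in untransfected cells, -0.99 and -1.0 in IgM cells, -4.52 and -4.11 in clone 18 and -4.73 and -3.75 in clone 41. Only 1 of the 2 arrays of each IgE clone, replicate 2, was well above background, so the size of its falls rests partly on spots near background. BAFF thus passed the filter through the control lines alone, so in the IgE lines it could be called only lower. BAFF was 6.14-fold lower in the IgE lines (-2.62 ± 0.25, SE; limma adjusted p = 0.000978), and was called in each clone against each control, by 3.79-fold to 9.96-fold.

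Tnfsf9 encodes 4-1BB ligand and read 5.06 and 3.34 in untransfected cells, 1.95 and 1.88 in IgM cells, 0.91 and 0.77 in clone 18 and 0.98 and 0.66 in clone 41. It was 4.68-fold lower in the IgE lines (limma adjusted p = 0.00781), and was called against untransfected cells (10.2-fold and 10.4-fold) but not against IgM cells (adjusted p = 0.234 and 0.253). Tnfsf10 encodes TRAIL and was well above background on the IgM arrays alone (-3.65 and -3.01). It was at least 2.34-fold lower in clone 18 and at least 2.2-fold lower in clone 41 than in IgM cells (limma adjusted p = 0.00568 and 0.0074).

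Of 13 other TNF receptors tested, 1 fell in the IgE lines and 0 rose (median -0.10). Fas, the death receptor, read 4.07 and 3.63 in untransfected cells, 3.37 and 2.75 in IgM cells, 2.19 and 2.34 in clone 18 and 2.58 and 2.6 in clone 41, a change of 2.04-fold (limma adjusted p = 0.0117). None of 13 receptor adaptors was called with limma in the pooled or any single-line comparison (median -0.12). Of 24 NF-kB subunits and regulators 1 fell and 0 rose (median -0.04): Bcl3, an atypical IkB protein, read 1.71 and 1.73, then -0.33 and 1.45, then -1.71 and -1.48, then -1.30 and -0.48, and was 5.22-fold lower (adjusted p = 0.00907). Fas and Bcl3 were called in both clones against untransfected cells and in neither against IgM cells. Over all probes 5.35% were called lower in the IgE lines, so 1 of 13 receptors and 1 of 24 NF-kB genes are near that share.

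**Figure D5:**
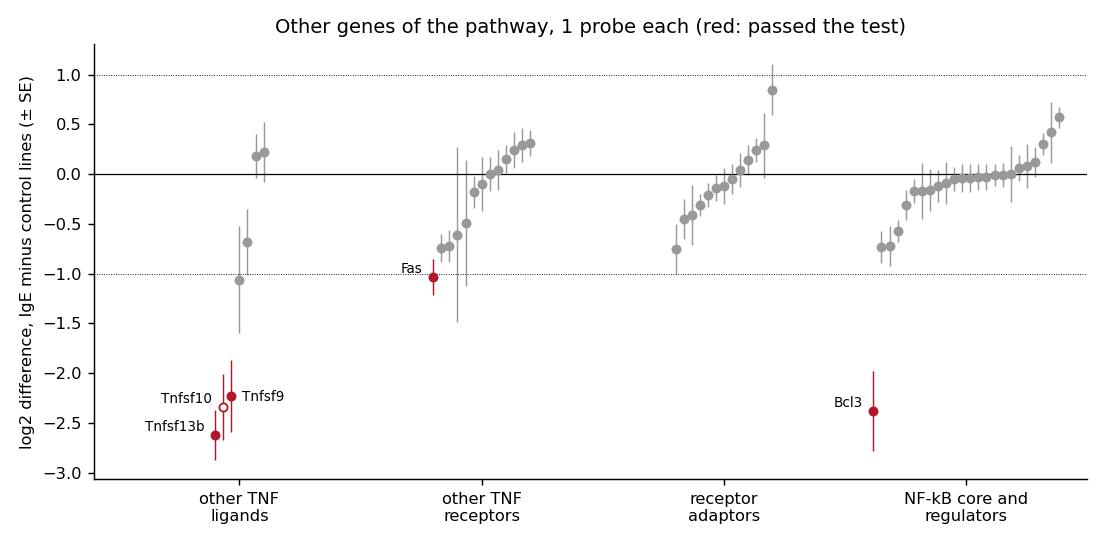
Log2 difference ± SE between IgE and control lines (y axis) for the tested genes of 4 lists that are not members, ordered by value within a list (x axis), with called genes in red and named, and Tnfsf10, below background on the IgE side, as an open circle. The 5 called genes lie at or below the 2-fold line at -1, and most adaptors and NF-kB genes lie near 0.

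The B cell defining markers were also followed beside these falls. Their summed signal, relative to the 75th percentile, was 422 to 515 in untransfected cells, 523 to 532 in IgM cells, 405 to 459 in clone 18 and 442 to 445 in clone 41. Among them Cd74 was saturated on all 8 arrays, Cd79b on 3 and Blnk on 2, so the sum can hide a change. Of the 10 markers 1 fell in the IgE lines, 0 rose and 9 were not called, where 5.35% of all probes were called lower. The part of the B cell marker level in the falls of Cd70 and BAFF-R was not tested.

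Genes with the pattern most like a called member were found as the smallest root mean square difference of the centred log2 levels on the 8 arrays, each first raised to the array's lowest signal well above background, among 12357 genes with an accession in the RefSeq table. For Cd70, where all IgE values were at that floor, these were Slpi (1.02 log2 units), Nlrp4f (1.24) and Emr1, now Adgre1 (1.5). For BAFF-R at base 1817 they were Cbfa2t3 (0.25), Prtg (0.28) and Cotl1 (0.28). For TACI at base 175 they were Ahr (0.30), B4galt1 (0.30) and Trf (0.32), and for Traf1 they were Ceacam2 (0.18), Gja1 (0.24) and Fam89a (0.25). The nearest gene to Cd70, Slpi, read 5.51 and 4.75 in untransfected cells, 1.82 and 2.27 in IgM cells and -2.54 to -1.21 on the IgE arrays.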

How the data were processed

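Total RNA of 8 A20 samples was measured on Agilent mouse arrays of design 028005. Per the file headers, spots were read with Feature Extraction 10.7.3.1 and the deposited processed intensity was background-subtracted and detrended within each array; probes were placed on mm9. The authors' deposited value table is on a log2 scale, with column medians of 6.04 to 6.05 and the rank order of the median pixel intensity (Spearman 1); its normalization is not given in the sources used here. All 8 arrays shared 1 scan time, and each line filled its own slide column, so column and line cannot be told apart.

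From the intensity, log2 values were reduced by each array's 75th percentile (414.4 to 586.5), outlier spots were left out and repeated spots averaged. Probes well above background on both arrays of a line were kept (29140 of 55681; 34 had a missing value). limma 3.58.1 in R 4.3.3 fitted 1 mean per line to all 8 arrays (4 residual and 2.74 prior degrees of freedom), two-sided, with Benjamini-Hochberg adjustment over all kept probes; it was tested on simulated data. Every member probe was named, up to 4 called genes of each other list, and the 3 genes most like each called member. The members and lists were chosen with earlier results of these data known. The fit reported did not pair arrays by replicate number. Replicate differences correlated between lines at -0.0744, 0.00455, 0.155, 0.232, 0.244 and 0.349, and the cause was not tested. Alternatives were quantile scaling, normexp (offset 50), other filters, the authors' table, 1 probe per gene, kept outliers, another prior, no fold threshold, each array left out, a replicate block, and 2 groups of 4 arrays. A few values of marker genes are not reported here.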

Additional observations from a re-analysis of the deposited data

Results flagged for a closer look

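The control lines differed from each other for Cd70: the IgM line was lower than untransfected cells by a log2 difference of -5.09 (limma adjusted p = 0.0259), so the pooled control mean joins lines that differ.

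For both BAFF-R probes a single control array, untransfected replicate 1, lay far above the other 3. At base 1817 it read 5.38 against 3.86 to 4.11, and at base 91 it read 2.3 against 0.40 to 0.67. In all 19 groups of 4 arrays were checked for such a gap, and chance flags about 1 in 20.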

How the results depend on the processing

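The count of called member probes depended on the setting. For IgE against control lines, 5 in the fit reported, it was 3 with 1 probe per gene name (8 probes tested), 3 with 2 groups of 4 arrays, with or without line as a random block, and 2 with no filter and in the authors' table. With an untransfected array left out a count is no check, here and below. Without any 1 IgM or IgE array the count was lower than 5. For clone 18 against untransfected cells, also 5, it was 7 under normexp, 6 with the trended prior and 4 with quantile scaling. It was 3 with 1 probe per gene, 3 in the authors' table and 2 with no filter, and lower than 5 without any 1 IgM or IgE array. For clone 41 against untransfected cells, 2 in the fit reported, it was 1 with no filter, in the authors' table and with 1 probe per gene. It was also 1 with probes well above background on all 8 arrays (which leaves out Cd70). The count was 3 under normexp and 4 with the trended prior, and lower than 2 without any 1 IgE array. For clone 18 against IgM cells, 2 in the fit reported, it was 1 under normexp, no filter and the 8-array filter, and 0 in the authors' table. It was lower than 2 without IgM replicate 2 or any 1 IgE array. For clone 41 against IgM cells, 1 in the fit reported, it was 0 under normexp, the 8-array filter and the authors' table. For IgM against untransfected cells, also 1, it was 2 under normexp and the trended prior. It was 0 with no filter, the 8-array filter and the authors' table, and lower than 1 without IgM replicate 1 or any 1 IgE array.

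Apart from saturated Ltb and Cd70 between the IgE clones, which were not compared, no member's difference changed sign under a setting that kept all arrays. With an array left out, its line's other array was assumed to vary like the rest. With an array left out, signs changed for Tnf (-1.37 to 0.00 in IgE against control lines, -2.11 to 0.63 and -2.23 to 0.51 in clones 18 and 41 against untransfected cells, -1.6 to 1.14 in IgM against untransfected cells) and Tnfrsf1b (-0.18 to 0.05, IgE against control lines). Signs also changed against IgM cells for TACI at base 2451 (-0.22 to 0.51 in clone 18, -0.06 to 0.67 in clone 41), at base 408 (-0.23 to 0.42 and -0.08 to 0.56) and at base 175 (-0.52 to 0.47 in clone 41), and for Cd40 (-0.42 to 0.23 in clone 41). BAFF-R at base 91 ran from -1.76 to 0.11 in IgM against untransfected cells. The replicate block gave 5 called members in the pooled comparison, as without it, and 2688 against 2619 called probes. Over all probes 1344 were called with normexp, 1527 in the authors' table, 1514 with the 8-array filter and 4969 with no fold threshold. The cause of these changes was not tested. Saturation of Ltb, and signal below background for Cd27, Tnfrsf17 and the IgE arrays of Cd70, limit what these probes can show.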

Other observations

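Among markers of other cell types, 5 genes were called between the IgE and control lines, of which Cd3g and Hbb-b1 set the IgM line apart from the other lines. Emr1 (Adgre1, the macrophage antigen F4/80) was 21.2-fold lower in the IgE lines (limma adjusted p = 0.000572), at 2.80 and 2.12 in untransfected cells, -0.99 and 0.32 in IgM cells and -4.23 to -2.54 on the IgE arrays. Cd68, a lysosomal protein abundant in macrophages, was 3.22-fold higher (adjusted p = 0.000935). Klrb1c (NK1.1) was at least 8.16-fold lower, and no IgE array was well above background. Cd3g, a subunit of the T cell receptor complex, was well above background on the IgM arrays alone, at -1.23 and -0.46. Hbb-b1, a beta globin, was 3.68-fold higher in the IgE lines (adjusted p = 0.00655) with the IgM arrays at -1.0 and -0.75 against 1.67 to 4.06 elsewhere.

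Irf4, which encodes a transcription factor needed for plasma cell formation, was 6.92-fold lower in the IgE lines (-2.79 ± 0.30, SE; limma adjusted p = 0.00168). It read 3.5 and 2.17 in untransfected cells, 1.21 and 0.75 in IgM cells, -1.26 and -1.14 in clone 18 and -0.34 and -0.79 in clone 41. Against untransfected cells it was called in clones 18 and 41 (16.4-fold and 10.6-fold lower). Against IgM cells it was called in clone 18 (4.53-fold, limma adjusted p = 0.0238) but not in clone 41 (2.92-fold, adjusted p = 0.0809). Of the 6 plasma cell markers 1 fell, 0 rose and 5 were not called (median -0.34). Of 7 T and NK cell markers tested 2 fell and 0 rose. Both, Klrb1c and Cd3g, passed the filter through control arrays alone, so they could be called only lower. Of 7 myeloid markers 1 fell and 1 rose, and of 6 stromal and erythroid markers 1 rose and 0 fell. Over all probes 5.35% were called lower and 3.63% higher.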
